A study of Mus musculus with 8 samples.

Results

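The genes described here are the 3 retinoblastoma pocket proteins (Rb1, Rbl1 and Rbl2) and 7 E2F transcription factors (E2f1, E2f2, E2f3, E2f4, E2f5, E2f7 and E2f8), 10 genes in all. They were read through every probe set that the array annotation pairs with one of these genes alone, which gave 19 of the 24838 probe sets that carry 1 gene. The cells were primary mouse embryonic fibroblasts, taken directly from embryos and not immortalised, in 2 genotypes: Cry1-/- Cry2-/- (Cry DKO), without both cryptochrome repressors of the circadian clock, and wild type (WT). Each genotype had 4 independent lines with 1 Affymetrix array per line, so there were 8 arrays. All lines were untreated, nearly C57BL/6J after more than 7 backcrosses from BL6/129 mice, and grew in 10% serum at 3% oxygen. They proliferated without synchronisation, so a value averages over cells at all points of the cell cycle. An array reads RNA from the whole culture, and more cells with a transcript cannot be told apart from more transcript per cell.

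Pocket proteins and E2Fs form the switch between rest and division. Unphosphorylated pocket proteins sit on E2Fs at promoters and keep cell cycle genes silent. Cyclin-dependent kinases phosphorylate the pocket proteins in G1, the E2Fs are released, and genes of DNA replication are transcribed. RB, the product of Rb1, binds mainly the activators E2F1, E2F2 and E2F3. The relatives p107 (Rbl1) and p130 (Rbl2) bind mainly the repressors E2F4 and E2F5, and with the MuvB core they build the DREAM complex, which silences cell cycle genes in resting cells. E2F7 and E2F8 are atypical repressors that bind DNA without a DP partner and without a pocket protein. Several of these genes are known as E2F targets themselves.

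Promoter sequences show which of the 10 genes carry letters of the E2F type near their start. RefSeq promoters of build GRCm38.p6 (250 bases before and 50 after an annotated start) were at hand for 7 of the 10 genes, with 9 promoters in all. Both strands were searched for the E2F words TTTCCCGC, TTTGGCGC, TTTCGCGC and TTTGCCGC, for the cell cycle homology region (CHR) TTTGAA, at which the DREAM complex binds, for CCAAT, for the E-box CACGTG, at which CLOCK and ARNTL bind, for the D-box TTATGTAA and for the nuclear receptor element AGGTCA. No word contains another, and the E-box, its own reverse complement, was counted once. The 5 promoters below are shown because they belong to the called gene (Rbl1), to both atypical repressors (E2f7, E2f8), to the pocket protein with negative differences (Rbl2), and to an activator E2F with both an E2F word and a CHR (E2f3). Capitals mark E2F words and CHR words, on either strand. The intervals are chr2:157204485-157204784 on the minus strand for Rbl1, chr10:110745189-110745488 on the plus strand for E2f7, chr7:48881547-48881846 on the minus strand for E2f8, chr8:91069807-91070106 on the plus strand for Rbl2 and chr13:29986014-29986313 on the minus strand for E2f3. Each runs 5′ to 3′ on the strand of its gene.
Rbl1: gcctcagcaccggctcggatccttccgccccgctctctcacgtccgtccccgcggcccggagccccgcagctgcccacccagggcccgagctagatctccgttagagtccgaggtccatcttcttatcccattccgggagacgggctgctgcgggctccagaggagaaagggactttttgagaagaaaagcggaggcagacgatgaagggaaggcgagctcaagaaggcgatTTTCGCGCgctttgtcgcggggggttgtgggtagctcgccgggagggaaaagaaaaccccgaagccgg
E2f7: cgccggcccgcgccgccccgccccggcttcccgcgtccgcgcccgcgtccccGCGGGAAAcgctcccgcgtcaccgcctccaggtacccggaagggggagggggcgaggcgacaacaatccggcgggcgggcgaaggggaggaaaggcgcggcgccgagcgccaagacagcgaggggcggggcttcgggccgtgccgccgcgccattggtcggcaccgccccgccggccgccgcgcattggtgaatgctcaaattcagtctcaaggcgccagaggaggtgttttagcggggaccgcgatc
E2f8: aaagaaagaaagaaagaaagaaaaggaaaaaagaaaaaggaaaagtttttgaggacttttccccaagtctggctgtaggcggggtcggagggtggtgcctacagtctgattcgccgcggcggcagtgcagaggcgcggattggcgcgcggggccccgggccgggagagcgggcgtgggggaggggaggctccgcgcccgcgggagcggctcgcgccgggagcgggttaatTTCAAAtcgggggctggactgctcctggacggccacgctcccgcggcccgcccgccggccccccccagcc
Rbl2: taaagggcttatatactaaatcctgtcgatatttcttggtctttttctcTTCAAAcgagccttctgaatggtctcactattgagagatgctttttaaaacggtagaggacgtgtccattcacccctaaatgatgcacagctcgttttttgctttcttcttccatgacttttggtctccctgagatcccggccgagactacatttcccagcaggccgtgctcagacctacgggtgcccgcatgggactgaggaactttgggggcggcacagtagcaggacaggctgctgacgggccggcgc
E2f3: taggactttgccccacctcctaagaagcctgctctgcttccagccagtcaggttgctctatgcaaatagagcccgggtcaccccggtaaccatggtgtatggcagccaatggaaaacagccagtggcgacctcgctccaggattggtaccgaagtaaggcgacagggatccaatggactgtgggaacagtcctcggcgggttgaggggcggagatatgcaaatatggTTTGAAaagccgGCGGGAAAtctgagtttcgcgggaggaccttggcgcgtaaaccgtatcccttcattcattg

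The Rbl1 promoter holds the E2F word TTTCGCGC at position -18, counted from the start to the first base of the match. E2f7 holds TTTCCCGC on the opposite strand at -198, and 2 CCAAT boxes nearer to the start. E2f8 has no E2F word in this window and a CHR on the opposite strand at -20. Only exact copies of the E2F words listed above were counted, so a variant of them would be missed. The E2f3 promoter has an E2F word on the opposite strand at -11 and a CHR at -23, and Rbl2 has a CHR alone, on the opposite strand at -201. An E2F word was found in 4 of the 9 member promoters (of Rbl1, E2f2, E2f3 and E2f7), against 2.26% of the 32851 promoters of the table. A CHR was found in 4 of the 9 (17.9% of all promoters), CCAAT in 5 of the 9 (37.4%) and the E-box in 1 of the 9, at the other start of E2f3 (7.15%). The CHR and CCAAT counts include start 2 of E2f2, whose window opens with E2F2 coding sequence. Its CHR and CCAAT words come after that stretch, inside the gene. The D-box (0.938% of all promoters) and the element AGGTCA (16.3%) were found in 0 of the 9. For scale, 14 of 36 promoters of the G1/S target list described below held an E2F word, and 15 of 21 promoters of the G2/M list held a CHR. The window of the annotated E2f1 start held none of the words searched. That window contains E2F1 coding sequence, so this start lies inside the gene. The region upstream of the gene was not searched, and the absence says nothing about it. These matches are letters in a window and not measured binding.

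**Figure D1:**
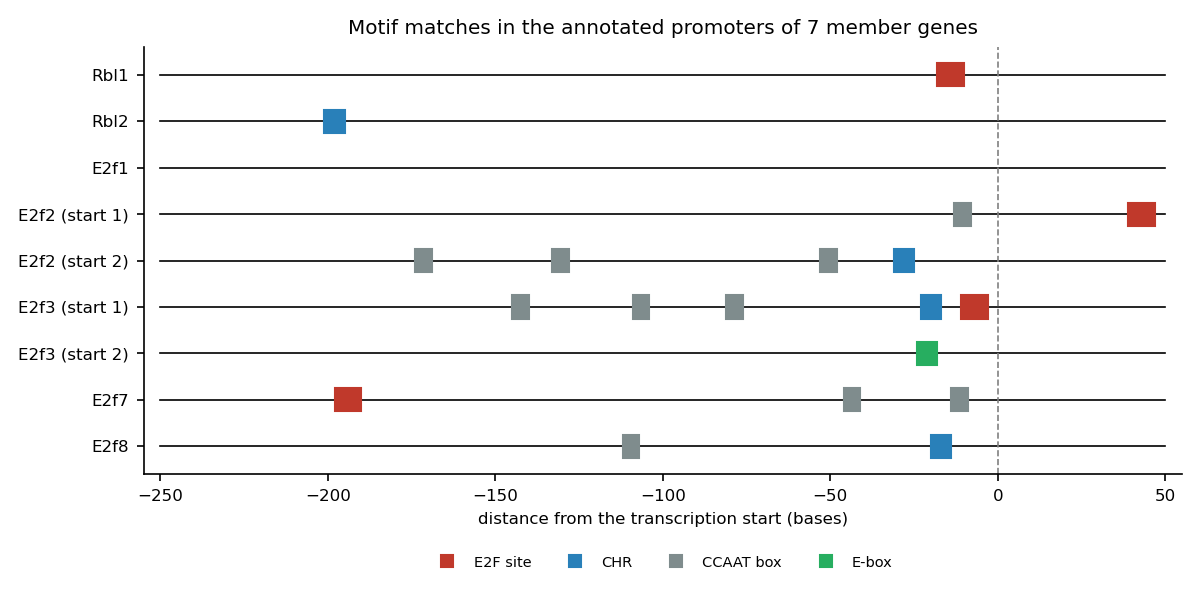
Matches of 4 motifs in 9 annotated promoters of 7 member genes, plotted by distance from the transcription start in bases, 1 row per promoter. The E2f1 start and start 2 of E2f2 lie inside their genes, in windows that contain coding sequence. E2F words (red) appear in Rbl1, E2f7 and 1 start each of E2f2 and E2f3, CHR words (blue) in Rbl2, E2f8 and 1 start each of E2f2 and E2f3.

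The 8 arrays had log2 medians of 6.78 to 6.79, and their correlations were 0.973 to 0.977 within a genotype and 0.967 to 0.975 between genotypes. The deposited values give no reads or detection calls, so the number of arrays and the brightness of a probe set limit the precision. The median SD within a genotype was 0.14 among the 16333 probe sets at or above the signal floor (a mean over all arrays of 6.06, the 40th percentile) and 0.42 below it. A probe set was called at an adjusted p under 0.05 in limma, with Benjamini-Hochberg adjustment over these 16333. Of them 599 were higher and 513 lower in Cry DKO lines, 6.81% in all. That total of 1112 was 577 without WT line 1, 599 without WT line 2, 481 without WT line 3 and 393 on each probe set's own spread alone. The Cry1 and Cry2 probe sets had differences of -0.50 (SE 0.21) and -0.34 (SE 0.13) with overlapping groups (limma adjusted p = 0.18 and 0.143). The sources used here do not say whether their probes lie in the deleted parts, so these values check no label. Of 12 fibroblast markers 9 were tested and none passed (3 of their 17 probe sets had an unadjusted p under 0.05), while Dcn, Lum and Pdgfra had only probe sets below the floor. Most fibroblast differences were negative: 2 of the 17 lay above 0, and the median was -0.07, against -0.01 over all tested probe sets. Macrophage and blood cell markers differed: 12 of 23 probe sets rose in Cry DKO lines, among them those of Cd14 by 0.92, Lyz2 by 0.83, Cd53 by 0.92 and Csf1r by 0.84. The mean over 17 genes ranged from 8.64 to 9.59 in Cry DKO and from 7.998 to 8.65 in WT lines, so the lowest Cry DKO line and the highest WT line were level. Endothelial and epithelial markers were mostly dim, with 1 of 10 and 2 of 8 genes tested, and none of their probe sets passed (unadjusted p under 0.05 for Krt18 alone).

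Of the 10 genes Rbl1 alone passed the test, and it was higher in Cry DKO lines. Among 14 tested member probe sets (9 genes), 1 rose and 0 fell, which is close to the 6.81% of all tested probe sets that passed in either direction. In the same comparison 5 of the 14 had an unadjusted p under 0.05, against 23.2% of all. The groups did not overlap in 3 of the 14 (Rbl1, E2f5 and E2f7), against 15.4% of all. The median difference over the 14 was 0.04, against -0.01 over all tested probe sets. The other 5 member probe sets, both of E2f2, 2 of Rbl1 and 1 of Rb1, lay below the floor and are given from a fit of all 24838 probe sets without a filter, in which 3.99% passed and 1 member probe set, the same one of Rbl1, did.

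**Figure D2:**
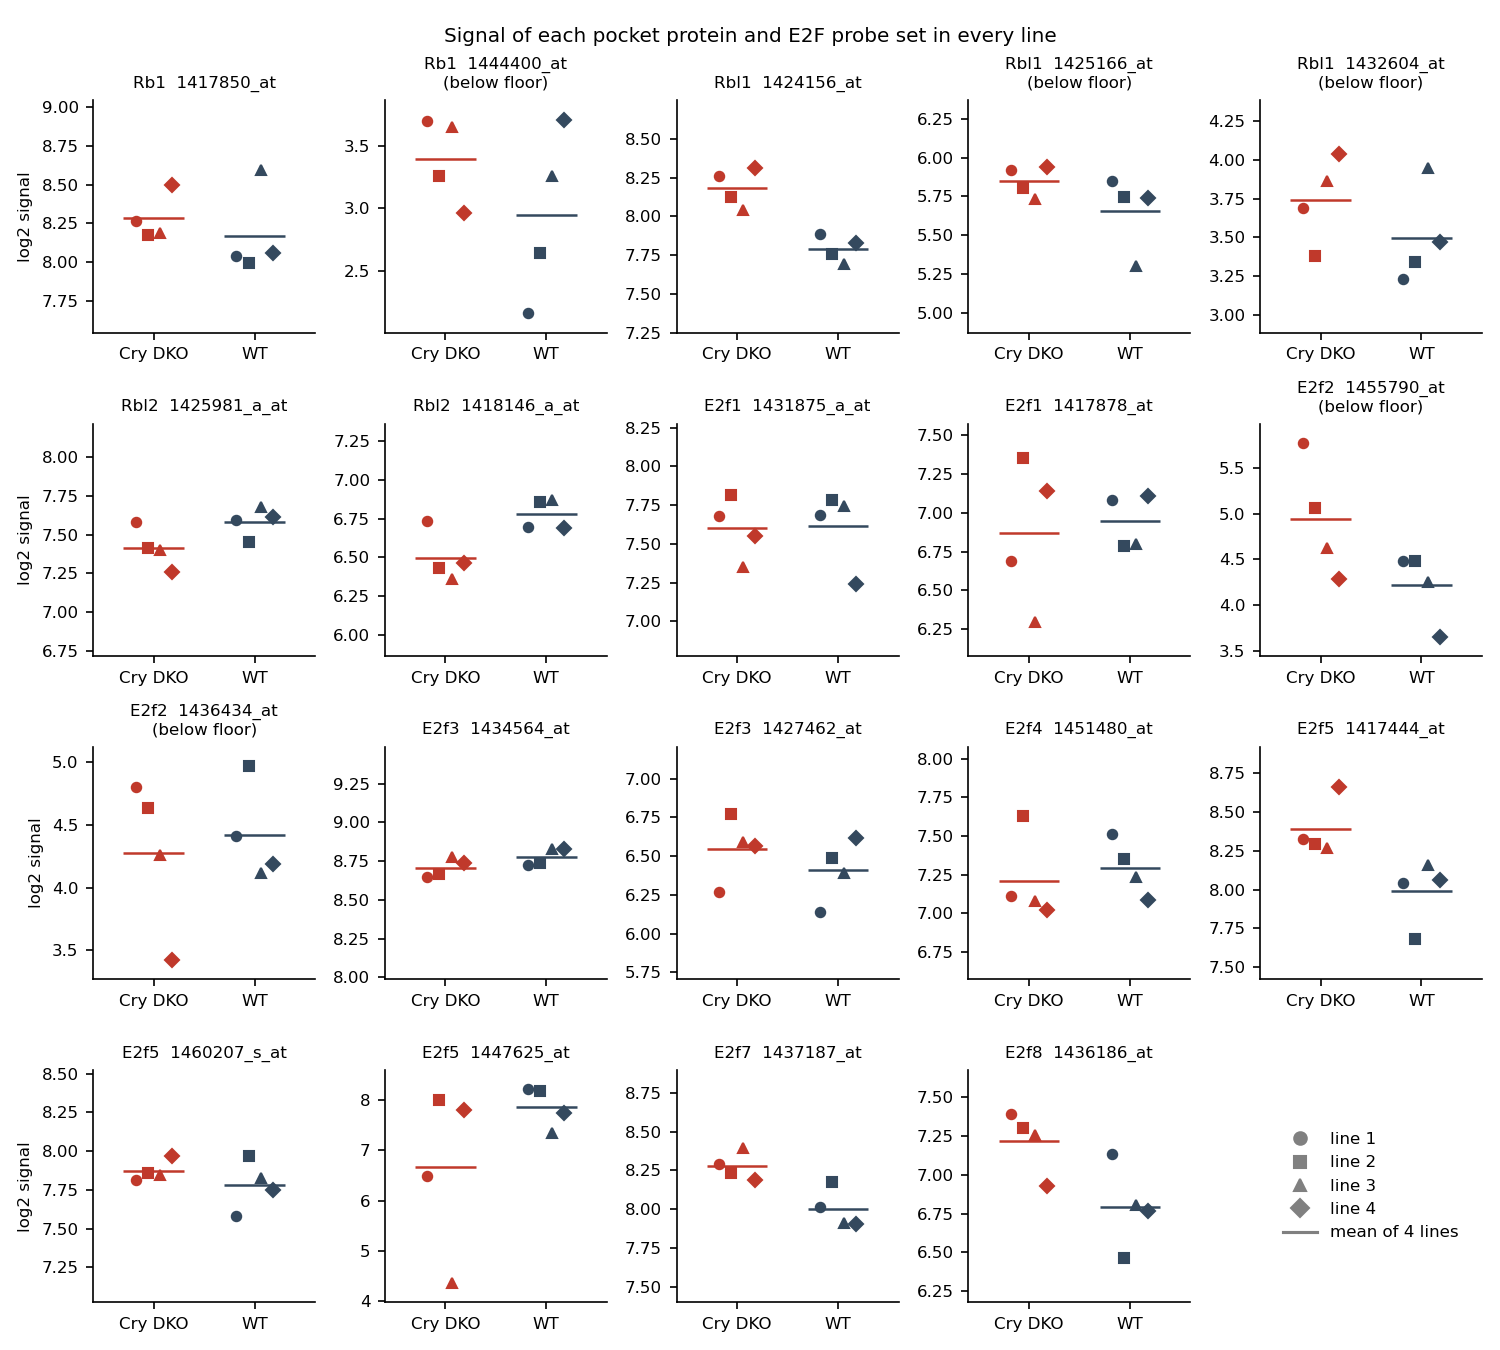
Log2 signal of each of the 19 member probe sets in every line, with Cry DKO left of WT; symbols mark lines 1 to 4 and bars the mean of 4 lines. Axes differ between panels, and levels of different probe sets are not comparable. The groups separate for Rbl1 1424156_at, E2f5 1417444_at and E2f7 1437187_at.

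Among the pocket proteins, Rbl1 was the one that rose. Its probe set 1424156_at read 8.26, 8.13, 8.04 and 8.31 in Cry DKO lines 1 to 4, against 7.89, 7.75, 7.69 and 7.83 in WT lines 1 to 4. Every Cry DKO line lay above every WT line. Rbl1 averaged 8.18 ± 0.12 in Cry DKO and 7.79 ± 0.09 in WT lines (SD, n = 4 each), a difference of 0.39 on the log2 scale (SE 0.09, limma adjusted p = 0.0228). That is 1.31-fold, with a 95% confidence interval of 1.153 to 1.498. Its rank by p was 530 of 16333. The call did not hold without WT line 2 (adjusted p = 0.0579), without WT line 3 (0.0699), without Cry DKO line 1 (0.0527) or on the probe set's own spread alone (0.0622), and the adjusted p ranged from 0.019 to 0.0699 over its 18 alternatives. The difference itself stayed between 0.35 and 0.44 in all 18.

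The 2 dim probe sets of Rbl1 had differences of the same sign with wide intervals. Probe set 1425166_at differed by 0.19 (95% interval -0.17 to 0.55) and 1432604_at by 0.25 (-0.48 to 0.97). Over the 8 lines the tested probe sets whose pattern was most like that of Rbl1 1424156_at belonged to Incenp (Pearson r = 0.98), a scaffold of the chromosomal passenger complex in mitosis, to Bmp2k (r = 0.98), a kinase, and to Cks1b (r = 0.98), a small subunit of cyclin-dependent kinases. These are the highest of 16333 values over 8 points that also share the genotype difference. After the genotype means were subtracted, r was 0.92, 0.93 and 0.91, still for genes picked by their r over the same 8 lines. Their own differences were 0.50 (limma adjusted p = 0.0037) for Incenp, 0.36 (0.0577) for Bmp2k and 0.17 (0.0517) for Cks1b.

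Rbl2, the pocket protein known for its abundance in resting cells, had negative differences in both of its probe sets, and neither passed. Rbl2 1418146_a_at read 6.74, 6.43, 6.36 and 6.46 in Cry DKO lines, against 6.70, 6.86, 6.87 and 6.69 in WT lines. Cry DKO lines 2 to 4 lay below all WT lines, and Cry DKO line 1 lay among them. The difference was -0.28 (SE 0.12, 95% interval -0.54 to -0.02, limma adjusted p = 0.182). Rbl2 1425981_a_at read 7.58, 7.41, 7.40 and 7.26 in Cry DKO lines and 7.59, 7.45, 7.68 and 7.61 in WT lines. Cry DKO line 1 was again the highest of its group and overlapped WT. The difference was -0.17 (SE 0.10, 95% interval -0.38 to 0.04, adjusted p = 0.317).

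Rb1, the tumour suppressor of the family, did not pass. Rb1 1417850_at read 8.27, 8.18, 8.19 and 8.50 in Cry DKO lines, against 8.04, 7.99, 8.59 and 8.06 in WT lines. WT line 3 stood above all other lines, and the other 3 WT lines lay below all Cry DKO lines. The difference was 0.11 (SE 0.13, 95% interval -0.18 to 0.40, limma adjusted p = 0.662), and without WT line 3 it was 0.25 (SE 0.10, adjusted p = 0.177). The dim Rb1 probe set 1444400_at ranged from 2.96 to 3.70 in Cry DKO and from 2.16 to 3.71 in WT lines, a spread that left an interval of -0.52 to 1.42 for its difference.

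The activator E2Fs, which drive entry into S phase, showed no called difference. E2f1, with 2 probe sets, averaged 7.60 ± 0.20 in Cry DKO and 7.61 ± 0.25 in WT lines by 1431875_a_at (SD, n = 4 each). Its difference was -0.01 (SE 0.14, 95% interval -0.32 to 0.29, limma adjusted p = 0.967), so a rise of more than 1.22-fold lies outside the interval. By the other probe set, 1417878_at, E2f1 read 6.69, 7.36, 6.30 and 7.14 in Cry DKO lines, against 7.08, 6.79, 6.80 and 7.11 in WT lines. The Cry DKO lines spread on both sides of the WT lines, and the difference was -0.07 (SE 0.20, 95% interval -0.52 to 0.37). E2f1 is thus bounded less tightly by this probe set than by the first.

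E2f3 was the most precisely measured activator. Its probe set 1434564_at averaged 8.71 ± 0.06 in Cry DKO and 8.78 ± 0.06 in WT lines (SD, n = 4 each), a difference of -0.07 (SE 0.07, 95% interval -0.21 to 0.07, limma adjusted p = 0.564). E2f3 1427462_at had a difference of the opposite sign, 0.14 (SE 0.15, 95% interval -0.18 to 0.46), and neither passed. E2f2 was seen only below the floor. E2f2 1455790_at read 5.77, 5.06, 4.63 and 4.29 in Cry DKO lines and 4.49, 4.48, 4.25 and 3.66 in WT lines. Cry DKO lines 1 to 3 lay above all WT lines, and line 4 did not. The difference was 0.72 (SE 0.33, 95% interval -0.01 to 1.45, adjusted p = 0.273 without the filter). The other E2f2 probe set, 1436434_at, had -0.14 (SE 0.34), with a sign that turned to 0.04 without WT line 2 and to 0.14 without Cry DKO line 4.

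The repressor E2Fs that work through p107 and p130 did not pass. E2f4, the main E2F of resting cells, read 7.11, 7.63, 7.08 and 7.02 in Cry DKO lines, against 7.51, 7.35, 7.24 and 7.09 in WT lines, by its only probe set, 1451480_at. Cry DKO line 2 stood above all lines, and the other 3 lay near the lower end of WT. The difference was -0.09 (SE 0.15, 95% interval -0.40 to 0.23, limma adjusted p = 0.769), and -0.23 without Cry DKO line 2 (SE 0.12, adjusted p = 0.30).

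E2f5 depended on the probe set. By 1417444_at it read 8.33, 8.30, 8.27 and 8.66 in Cry DKO lines, against 8.04, 7.68, 8.16 and 8.06 in WT lines. Every Cry DKO line lay above every WT line, by a margin of 0.11 at the closest pair, and the difference was 0.40 (SE 0.12, 95% interval 0.14 to 0.66, limma adjusted p = 0.0688). Over its alternatives the adjusted p ran from 0.0469, with the line number as a block, to 0.179 on its own spread alone. By 1460207_s_at, which the annotation ties to the same transcript record, E2f5 averaged 7.87 ± 0.07 in Cry DKO and 7.78 ± 0.16 in WT lines (SD, n = 4 each), a difference of 0.09 (SE 0.09, adjusted p = 0.607). The third E2f5 probe set, 1447625_at, which has no accession in the annotation, read 6.50, 8.01, 4.35 and 7.81 in Cry DKO lines and 8.21, 8.18, 7.34 and 7.75 in WT lines. Cry DKO line 3 was far below all others. The difference of -1.21 (SE 0.64, adjusted p = 0.285) was -0.43 without that line (SE 0.33, adjusted p = 0.506). The 3 probe sets thus gave no common direction for E2f5.

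The atypical repressors E2f7 and E2f8, which close the G1/S transcription wave in S phase, had positive differences that did not pass. E2f7 1437187_at read 8.29, 8.23, 8.39 and 8.19 in Cry DKO lines, against 8.01, 8.18, 7.91 and 7.90 in WT lines. The groups did not overlap, though WT line 2 came within 0.01 of Cry DKO line 4. The difference was 0.28 (SE 0.09, 95% interval 0.09 to 0.46, limma adjusted p = 0.0791). E2f8 1436186_at read 7.39, 7.30, 7.26 and 6.92 in Cry DKO lines, against 7.13, 6.46, 6.80 and 6.77 in WT lines. WT line 1 lay above Cry DKO line 4, and the other lines were separated by genotype. The difference was 0.43 (SE 0.15, 95% interval 0.10 to 0.76, adjusted p = 0.115). The adjusted p of E2f7 ranged from 0.0523 to 0.181 and that of E2f8 from 0.0662 to 0.246 over their alternatives, so neither passed in any of them.

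**Figure D3:**
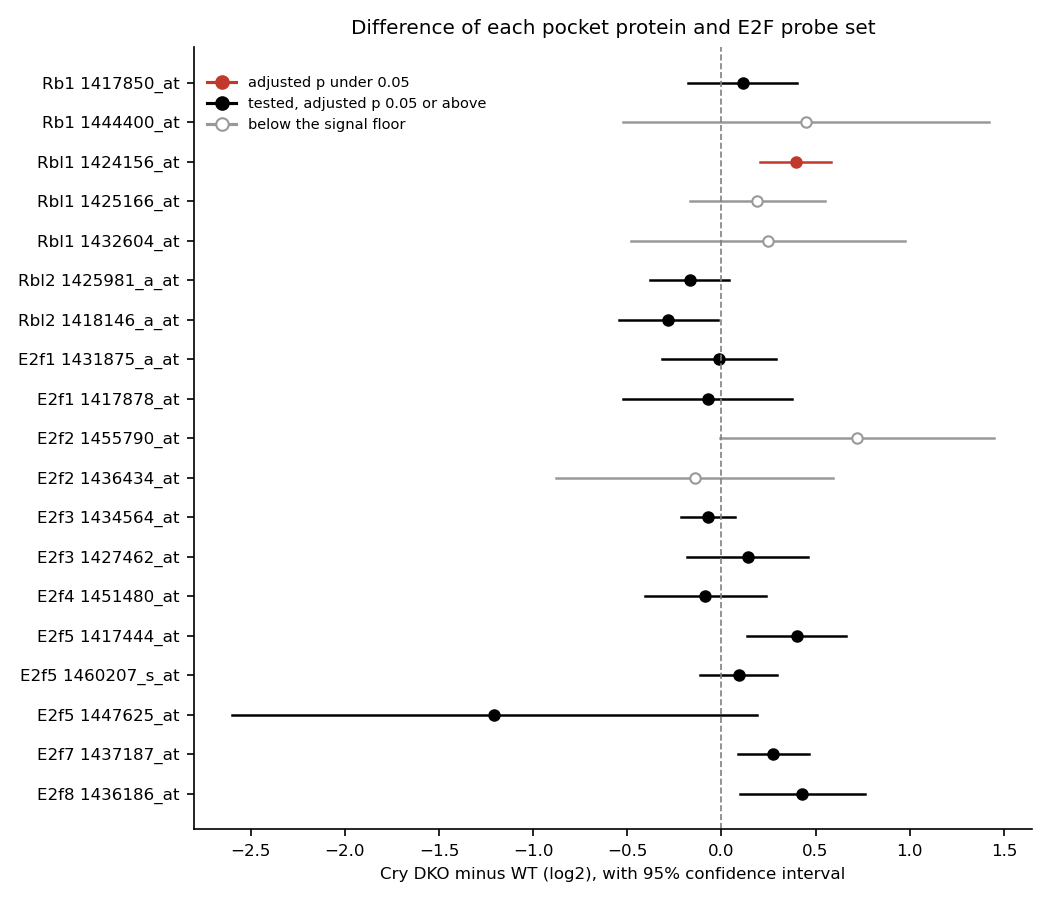
Difference between Cry DKO and WT lines for each of the 19 member probe sets on the log2 scale, with its 95% confidence interval from limma (n = 4 lines per genotype). Red marks the 1 called probe set, Rbl1 1424156_at at 0.39, and open grey symbols the 5 probe sets below the floor. The widest interval, -2.60 to 0.19, is that of E2f5 1447625_at.

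**Figure D4:**
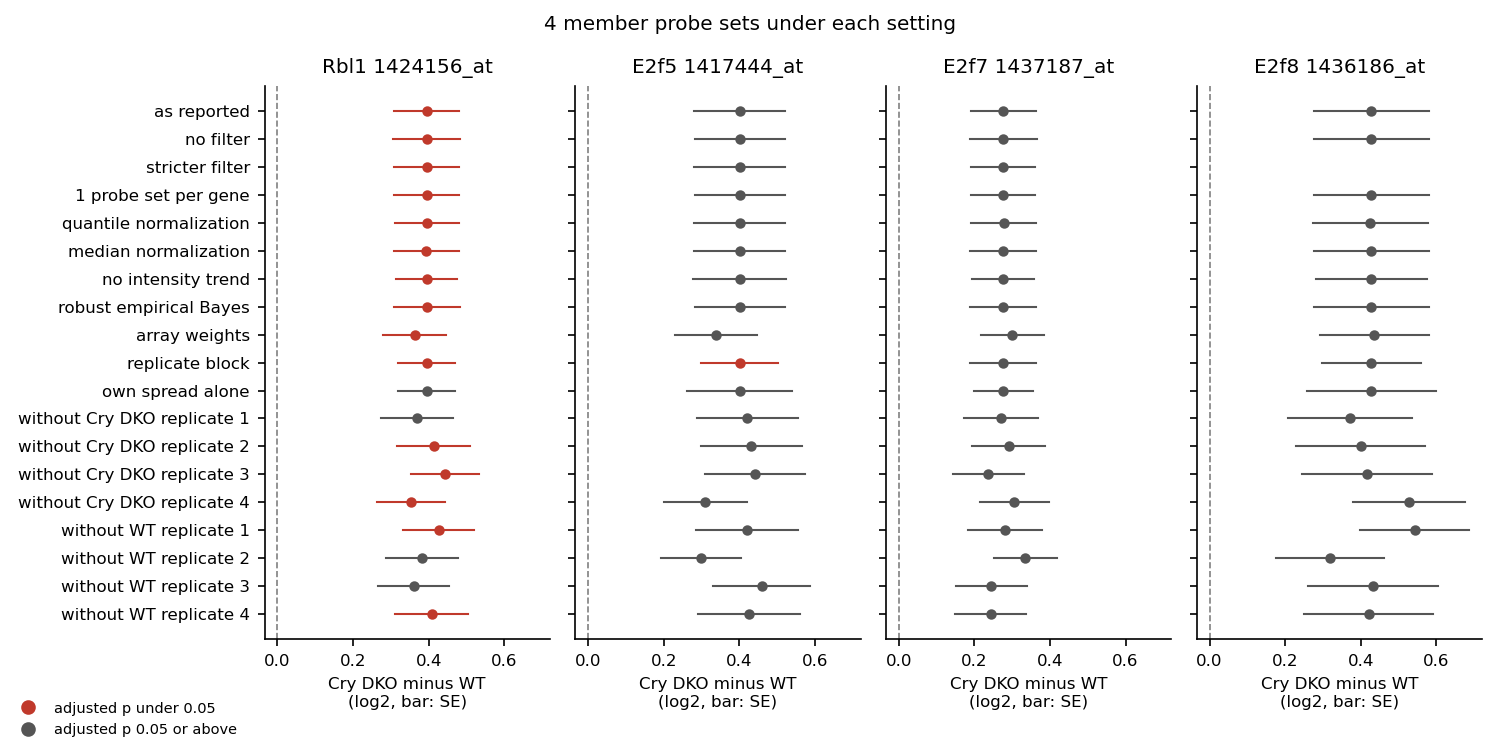
Difference and SE of the 4 member probe sets of smallest p under each setting that could be fitted, with the fits without 1 line at the bottom. Red marks an adjusted p under 0.05: Rbl1 loses it in 4 fits, and E2f5 1417444_at gains it in 1, with the line number as a block, and E2f7 and E2f8 stay at or above 0.05 in all the fits shown.

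Neither the DP partners with which E2Fs bind DNA nor E2f6 passed. Tfdp1, the main DP subunit, averaged 10.6 ± 0.13 in Cry DKO and 10.3 ± 0.04 in WT lines, a difference of 0.22 (SE 0.07, limma adjusted p = 0.0691, n = 4 each). E2f6, a repressor that acts without pocket proteins, averaged 9.59 ± 0.10 in Cry DKO and 9.82 ± 0.04 in WT lines by its probe set of smaller p. The difference there was -0.23 (SE 0.06, limma adjusted p = 0.0517). The other E2f6 probe set had overlapping groups and a difference of -0.36 (SE 0.22, limma adjusted p = 0.366). None of the 6 probe sets of Tfdp1, Tfdp2 and E2f6 passed (2 had an unadjusted p under 0.05). Of 8 tested probe sets for MuvB subunits and MYB factors, 1 rose and 0 fell, against 3.67% higher among all tested probe sets. The MuvB subunits, and not the MYB factors, complete the DREAM complex with p107 or p130. A single call in so short a list is no result about it. The call was Lin54, the DNA-binding subunit of MuvB, with a difference of 0.41 (SE 0.11, limma adjusted p = 0.0438).

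Among the kinases and cyclins that phosphorylate pocket proteins, of 23 tested probe sets 5 rose, against 3.67% of all, and 0 fell. They belonged to 4 of 10 genes: Cdk1 with a difference of 0.41 (SE 0.06, limma adjusted p = 0.00314), Ccna2 with 0.44 and 0.49 in its pair of probe sets, Ccne2 with 0.66 and Cdk2 with 0.37. The 16 tested probe sets of Ccnd1, Ccnd2, Ccnd3, Cdk4 and Cdk6, which start the phosphorylation of RB in G1, ranged from -0.23 to 0.32, and none passed in limma (3 had an unadjusted p under 0.05). Those of Ccnd1 were all positive (0.17 to 0.32, smallest limma adjusted p = 0.0639), and those of Ccnd2 all negative (-0.23 to -0.03). Of 9 tested probe sets for inhibitors of these kinases 5 fell, against 3.14% of all, and 1 rose. Cdkn1c fell by 1.17 (SE 0.12, adjusted p = 0.000703), Cdkn2b fell by 0.52, Cdkn1a fell by 0.38 in its probe set of smaller p, and Cdkn2c rose by 0.48. The count of 5 was 3 in each of 6 fits without 1 line, namely any WT line or Cry DKO line 1 or 2, and on each probe set's own spread alone 2 inhibitor probe sets fell and 2 kinase or cyclin probe sets rose. Of 30 probe sets for corepressors that pocket proteins recruit, such as histone deacetylases, 1 rose, again against 3.67% of all, one of the 3 of Dnmt1, the maintenance DNA methyltransferase (0.35, adjusted p = 0.0368).

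The known targets of the switch rose in large numbers in Cry DKO lines. In the G1/S target list 38 of 59 tested probe sets (24 of 34 genes) rose and 0 fell, with a median of 0.41, against a median of -0.01 and 3.67% higher among all tested probe sets. Ccne1 and Ccne2 belong to this list and to that of the kinases and cyclins, so the called Ccne2 probe set is counted in both. Rrm2, the small subunit of ribonucleotide reductase, rose by 0.51 (SE 0.06, limma adjusted p = 0.00225), Tk1, thymidine kinase, by 0.57, Gmnn, the licensing inhibitor geminin, by 0.49 and Pcna, the replication clamp, by 0.31. In the G2/M target list 27 of 35 probe sets (21 of 23 genes) rose and 0 fell, with a median of 0.45, among them Top2a by 0.56, Ttk by 0.79, Bub1 by 0.54 and Birc5 by 0.57. The G1/S count was 23 without WT line 3 and 19 on each probe set's own spread alone, where the G2/M count was 16. No test set the members against these lists, which were drawn up with earlier results of these arrays known. Mean levels of the G1/S list ran from 8.97 to 9.04 in Cry DKO and from 8.55 to 8.69 in WT lines. The macrophage markers were also higher in Cry DKO lines, as given above, and their part in the differences of Rbl1 and of these lists was not tested.

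**Figure D5:**
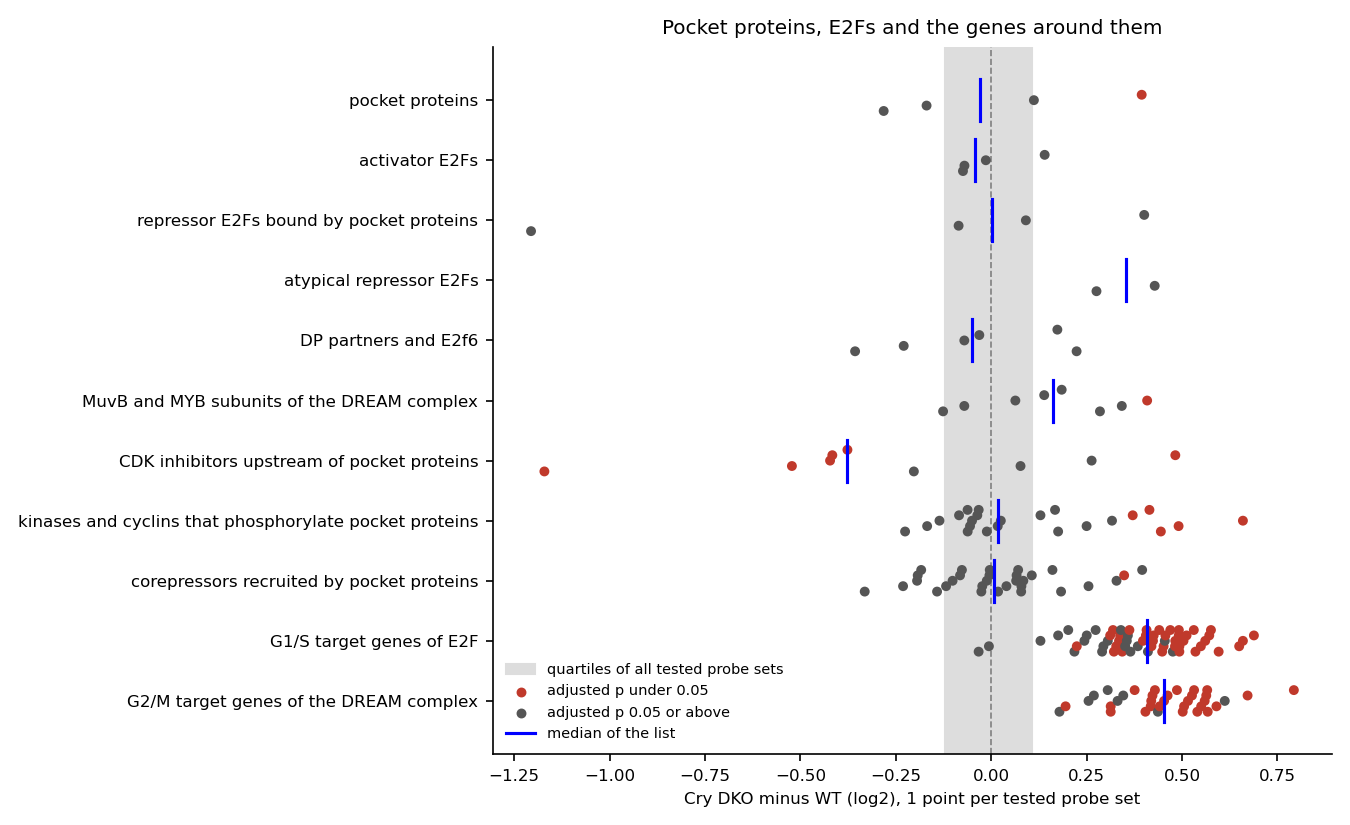
Differences between Cry DKO and WT lines for every tested probe set of the pocket proteins, the E2F groups and 7 lists of genes around them, on the log2 scale. Red points passed an adjusted p of 0.05, blue bars are list medians, and the grey band runs from the lower to the upper quartile of all tested probe sets (-0.12 to 0.11). The G1/S and G2/M target lists have medians of 0.41 and 0.45, to the right of the band.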

How the data were processed

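The deposited table held 30506 probe sets by 8 arrays, on a scale taken as log2 from its range (0.0675 to 14.3), since the base is not stated. The submitters' processing notes name GCOS, Affymetrix software, and no version. How the authors summarised and normalised the deposited log2 values, and which probe sets they kept, the sources used here do not say. Array medians nearly coincide, so values were used as deposited, and a change in total RNA cannot be seen.

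The platform's annotation paired 24838 probe sets with 1 gene, 658 with several and 4949 with none, beside 61 controls. Gene identifiers of 24757 were found in the RefSeq table (GRCm38.p6), which supplied symbols. Lines were grouped by genotype from the labels. Then limma 3.58.1 (R 4.3.3) fitted Cry DKO minus WT with an intensity trend and no covariate. The p was two-sided, with Benjamini-Hochberg adjustment. It reflects variation among lines, with each probe set's own spread combined with that of probe sets of similar signal. The fit was tested on simulated data. The members and lists were chosen with earlier results of these data known. Named genes outside the 10 members are up to 4 called genes of smallest p per list, or 2 where none was called, with up to 4 per marker list, and the 3 most like a called member. Ccnd1, Ccnd2, Ccnd3, Cdk4 and Cdk6 were named after their values were seen. Protein features of the members were not analysed here.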

Additional observations from a re-analysis of the deposited data

Results flagged for a closer look

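In 3 of the 38 groups of 4 lines examined (2 genotypes by 19 member probe sets), 1 line stood apart from the other 3 beyond Dixon's 95% critical value, and chance alone marks about 1 in 20 groups. Rb1 1417850_at was 8.5947 in WT line 3, the highest of its group. E2f4 1451480_at was 7.6316 in Cry DKO line 2, again the highest. E2f5 1417444_at was 8.6606 in Cry DKO line 4, and without that line the difference between Cry DKO and WT was 0.31 (limma adjusted p = 0.137).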

How the results depend on the processing

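The count of called member probe sets was 1 as reported, 0 on each probe set's own spread alone, 2 with a replicate block, and 0 to 1 without 1 line. The count over all probe sets was 1112, 393 on the own spread alone and 481 to 861 without 1 line. On the own spread alone 19 G1/S and 16 G2/M target probe sets were higher, and without 1 line 23 to 34 and 19 to 24. Fewer samples enter the fits without 1 line; otherwise the cause was not tested. Differences of E2f1 changed sign without 1 line, between -0.14 and 0.068 for 1431875_a_at and between -0.24 and 0.12 for 1417878_at, as did E2f2 1436434_at, between -0.32 and 0.14. Same-numbered lines of the 2 genotypes share only a number in the labels: their deviations from the genotype means correlated at 0.286, 0.109, 0.203 and 0.0232, and Cry DKO line 4 correlated more with WT line 3 (0.129) than with WT line 4. The other 11 differently numbered pairs lay between -0.176 and 0.043, so lines 1, 2 and 3 correlated best with their own number, a hint from the data and not from the design. With the replicate block 1423 probe sets were called, E2f5 1417444_at passed (0.40, limma adjusted p = 0.0469), and no other member changed its call. The stricter filter on dim probe sets gives no value for the members below it. Dim probe sets limit E2f2, whose intervals span more than 1 log2 unit.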

Other observations

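Among 9 tested probe sets of the apoptotic target genes of E2F, 1 was called, against 6.81% of all tested probe sets. It was Cdkn2a, which encodes p16 and p19ARF and is already one of the 5 inhibitor probe sets counted above, with a fall of 0.42 (SE 0.11, limma adjusted p = 0.0442) to 7.02 ± 0.11 in Cry DKO, against 7.44 ± 0.17 in WT lines (SD, n = 4 each). Among 17 probe sets of genes for RB turnover and RB binding, 1 was called, 5.88% against 6.81% of all, which is no more than the general rate. It was Skp2 1436000_a_at, for a ubiquitin ligase subunit that degrades p27, which rose by 0.43 (SE 0.11, adjusted p = 0.040). The other 5 Skp2 probe sets had differences of 0.12 to 0.31 and did not pass in limma (3 had an unadjusted p under 0.05).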
